A study of Homo sapiens with 6 samples.

Results

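The ATF4 amino-acid response genes examined here are ATF4 itself and 9 genes that cells are known to switch on through it, namely ASNS, CHAC1, TRIB3, DDIT3, DDIT4, PSAT1, PHGDH, SLC7A11 and SESN2. They were chosen by name, with earlier results of these data known. Their probes were found through the RefSeq accession that the array gives for each probe. All 10 genes had a probe, out of 22438 genes with a named probe that could be tested. CHAC1 had 2 probes and the other 9 genes 1 each, which made 11 probes. The samples were AGS cells, an established human gastric adenocarcinoma line, harvested 48 h after transfection. The cells received a non-targeting siRNA (si-control) or 1 siRNA against C1GALT1 (si-C1GALT1-3), with 3 samples per group and 1 one-colour array per sample. C1GALT1 is the Golgi galactosyltransferase that builds the core 1 structure of mucin-type O-glycans. The comparison asks how transcripts of the ATF4 response stood after C1GALT1 was targeted. Nothing in the labels says that the 3 samples of a group came from separate cultures, so the p-values measure only the spread between these samples. With a single targeting siRNA, effects of the lost transcript and of the siRNA itself cannot be told apart.

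ATF4 is a bZIP transcription factor whose mRNA is translated mainly when the initiation factor eIF2α is phosphorylated, as happens under amino-acid shortage through the kinase GCN2 or under endoplasmic reticulum stress through PERK. The protein then binds composite C/EBP-ATF elements near its target genes, together with other bZIP factors, and raises the transcription of genes for amino-acid synthesis, amino-acid uptake and stress control. The arrays measured transcripts, so the amount of ATF4 protein and its translation are not seen in these data.

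The known core of the C/EBP-ATF element, TGATGNAA, was looked for on both strands in the 250 bases before and 50 bases after the start of each gene, in RefSeq sequence of GRCh38.p14. A promoter window was at hand for 9 of the 10 genes, all but SLC7A11, and the core was found in 2 of these 9, ASNS and CHAC1. Of all 27305 genes with a window, 4.46% had it. The narrower form TGATGCAA, which is a special case of the first, was found in 1 of the 9, CHAC1, and in 1.08% of all genes. The stretches around both matches are shown because they carry the core that was looked for, although the genes were chosen by name. The match is in capitals, and each stretch is written in the direction of its gene.
ASNS: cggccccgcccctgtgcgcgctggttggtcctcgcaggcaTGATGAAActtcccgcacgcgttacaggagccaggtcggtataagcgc
CHAC1: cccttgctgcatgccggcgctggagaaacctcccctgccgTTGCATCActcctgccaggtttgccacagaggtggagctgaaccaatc
The ASNS stretch lies at chr7:97872429-97872516 on the minus strand, from position -108 to position -21 relative to the gene's start. The CHAC1 stretch lies at chr15:40953222-40953309 on the plus strand, from position -249 to position -162, and its match reads as TGATGCAA on the opposite strand. A match in these letters is a description of the sequence, and elements outside the window were not searched.

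Levels are quantile-normalized log2 signals, in which a step of 1 is a doubling. C1GALT1, the targeted gene, read 12.22, 13.03 and 12.62 in si-control samples 1, 2 and 3, and 11.76, 11.98 and 11.13 in si-C1GALT1-3 samples 1, 2 and 3. All 3 targeted samples lay below all 3 control samples. The difference was -1.0 ± 0.31 (SE, n = 3 per group) on the log2 scale, or 2.00-fold lower (limma, adjusted p = 0.265). A probe was called changed at a limma p under 0.01 and at least 2-fold, and C1GALT1 did not pass, although the direction followed the label.

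Several facts about the arrays touch the results that follow. The share of gene spots that stood well above background ran from 66.2% to 72.7% by array, and none was saturated. On si-control 2 a rectangle of 9712 gene spots, 15.9% of them, read 2.19 below the other controls by the median on the log2 scale, and these spots were left out on that array. Samples with the same number shared a slide, with si-control always in the first column and si-C1GALT1-3 in the second, so position on the slide and treatment cannot be told apart. The difference on each slide is therefore given beside the pooled one. Of 6 epithelial markers, all 6 were well above background on all 6 arrays. Probes of other cell types were above background in part. The leukocyte markers PTPRC, CD3E and CD14 were so on all 6 arrays. Of 5 fibroblast markers, COL1A1 and PDGFRB were so on each array where they were measured, DCN on 1, and COL1A2 and LUM on none. Of 4 endothelial markers, VWF and CDH5 were so on each array where they were measured, PECAM1 on 2 and KDR on 1. Each marker was read from its brightest probe alone, and detection on other probes is not given. By the median over a gene's probes, the differences of VWF and PDGFRB changed sign. No gene of the marker lists was called changed, and the part of these signals in the results was not tested.

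None of the 10 ATF4 amino-acid response genes was called changed, against 2.64% of all 58193 probes. Nor did any reach an adjusted p under 0.05, which 0.0842% of probes did, and 1 gene, PSAT1, had an unadjusted limma p under 0.05, as 6.43% of probes did in its direction. By the methods' t-test the counts were the same, with 0 genes called and 1 at p under 0.05. The fitted difference was negative for 9 of the 10, with a median of -0.92 on the log2 scale, against 0.02 over all named genes. Of the 9, ATF4, DDIT3 and PHGDH changed sign when single arrays were left out. The 6 genes ASNS, PSAT1, SLC7A11, CHAC1, TRIB3 and DDIT4 were lower in si-C1GALT1-3 on each of the 3 slides, and none was higher on all 3. Over the probes measured on all slides, 21.8% were lower on all 3 and 22.3% higher on all 3. In RNA of whole cultures, fewer cells with a transcript and less of it per cell cannot be told apart.

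**Figure D1:**
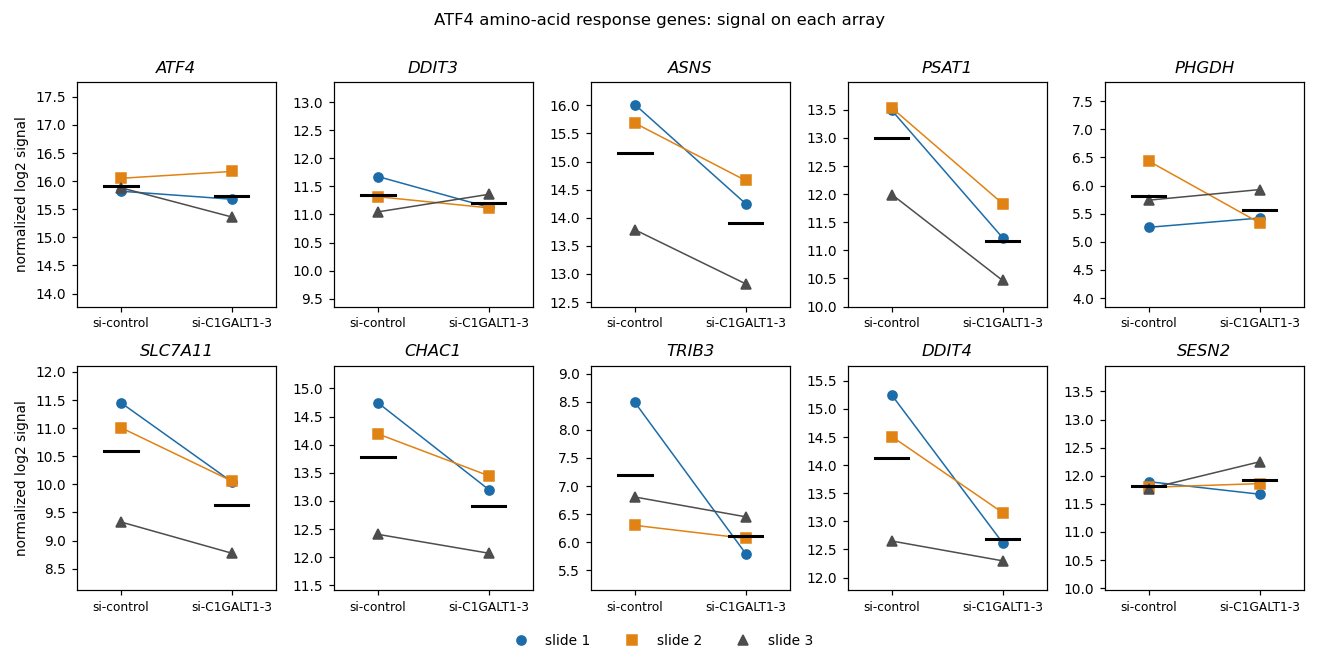
Normalized log2 signal of each of the 10 genes on the 6 arrays, with the 2 arrays of a slide joined by a line and group means as black bars. Each panel spans 4 log2 units on its own axis. In ASNS, PSAT1, SLC7A11, CHAC1, TRIB3 and DDIT4 all 3 lines slope down, and in ASNS, PSAT1, SLC7A11, CHAC1 and DDIT4 the si-control array of slide 3 lies at least 1 below the mean of the other controls.

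ATF4, the regulator, read 15.82, 16.05 and 15.88 in the si-control samples and 15.68, 16.17 and 15.36 in the si-C1GALT1-3 samples. The groups overlapped, and the controls spanned a narrow range. The difference was -0.18 ± 0.23 on the log2 scale (limma, adjusted p = 0.799), with a 95% interval from -0.76 to 0.40. A 2-fold change of the ATF4 transcript in either direction lies outside that interval.

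DDIT3 encodes CHOP, a bZIP partner of ATF4 that is itself one of its targets. Its signal was 11.67, 11.32 and 11.05 in si-control and 11.13, 11.12 and 11.36 in si-C1GALT1-3. The groups overlapped, and slides 1 and 2 went down while slide 3 went up. The difference of -0.14 ± 0.20 had an interval from -0.64 to 0.35 (limma, adjusted p = 0.816).

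The enzymes of amino-acid synthesis in the set are PSAT1, ASNS and PHGDH. PSAT1, the aminotransferase of the second step of serine synthesis, read 13.49, 13.53 and 11.99 in si-control against 11.22, 11.83 and 10.46 in si-C1GALT1-3. It was the only one of the 10 genes whose groups did not overlap, which 10.4% of all probes did in this direction. The margin was small, since si-control 3 at 11.99 stood only just above si-C1GALT1-3 sample 2 at 11.83. The difference was -1.83 ± 0.55, or 3.56-fold lower, with an interval from -3.19 to -0.47 (limma, adjusted p = 0.253). It was -2.26, -1.70 and -1.53 on slides 1, 2 and 3. With the slide as a block the standard error fell to 0.20 and PSAT1 passed the call (limma, adjusted p = 0.180). It passed under 6 of 20 alternatives in all.

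ASNS, asparagine synthetase, makes asparagine from aspartate and glutamine and is among the best known targets of ATF4. It read 16.01, 15.68 and 13.79 in si-control and 14.25, 14.66 and 12.83 in si-C1GALT1-3. The third control lay below the first 2 knockdown samples, so the groups overlapped, yet each knockdown sample lay below the control on its own slide. The pooled difference was -1.25 ± 0.75 (limma, adjusted p = 0.531). On slides 1, 2 and 3 it was -1.76, -1.02 and -0.96, and it ran from -1.94 without si-control 3 to -0.70 without si-C1GALT1-3 sample 3. With the slide as a block, ASNS also passed the call (limma, adjusted p = 0.191), with a standard error of 0.22.

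PHGDH catalyses the first committed step of serine synthesis, ahead of PSAT1. It was well above background on 1 of 3 si-control arrays and on none of the si-C1GALT1-3 arrays, so its level is known only as low. Its signals were 5.26, 6.44 and 5.74 against 5.42, 5.34 and 5.93, which overlap. No size is read from its difference, which is drawn with the others but rests on signals near background. The same holds for its place among the 9 negative differences. The difference between PSAT1 and PHGDH in response was not tested.

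SLC7A11 encodes the cystine-glutamate exchanger xCT, which brings in cystine for glutathione. It read 11.45, 11.01 and 9.33 in si-control and 10.05, 10.06 and 8.78 in si-C1GALT1-3. Again the control of slide 3 was lower than the knockdown samples of the other slides. The pooled difference was -0.97 ± 0.66 (limma, adjusted p = 0.578), and by slide it was -1.40, -0.95 and -0.55. It ran from -1.60 without si-control 3 to -0.54 without si-control 1. With the slide as a block it was not past the call either (limma, adjusted p = 0.216).

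CHAC1 encodes a cyclotransferase that breaks down glutathione, the product that cystine uptake feeds. Its brighter probe, A_33_P3376971, read 14.74, 14.19 and 12.40 in si-control and 13.20, 13.45 and 12.07 in si-C1GALT1-3. The difference was -0.87 ± 0.70 (limma, adjusted p = 0.645), and -1.54, -0.74 and -0.34 by slide. It ran from -1.56 without si-control 3 to -0.39 without si-control 1. The other probe, A_33_P3376965, showed the same order of samples, with 13.24, 13.12 and 11.04 against 11.72, 11.97 and 10.76. It differed by -0.99 ± 0.68 (limma, adjusted p = 0.587). The 2 probes therefore had the same direction on every slide, and neither passed the call with or without the block.

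TRIB3, a pseudokinase that binds ATF4 and holds its activity back, read 8.49, 6.30 and 6.80 in si-control and 5.80, 6.07 and 6.45 in si-C1GALT1-3. A single high array, si-control 1, set most of the difference, which was -1.09 ± 0.59 (limma, adjusted p = 0.481). By slide it was -2.69, -0.23 and -0.35. Without si-control 1 it was -0.45.

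DDIT4 and SESN2 both encode inhibitors of the growth kinase complex mTORC1. The difference between the 2 genes in response was not tested. DDIT4, also known as REDD1, read 15.24, 14.51 and 12.65 in si-control and 12.62, 13.16 and 12.30 in si-C1GALT1-3. The difference of -1.44 ± 0.69 was 2.72-fold (limma, adjusted p = 0.431), and by slide it was -2.62, -1.35 and -0.35. It ran from -2.18 without si-control 3 to -0.89 without si-control 1. The DDIT4 probe has 10 spots on each array, of which 3 lay in the rectangle left out on si-control 2. SESN2, a leucine sensor upstream of mTORC1, read 11.89, 11.79 and 11.77 against 11.67, 11.86 and 12.25. SESN2 was the only one of the 10 with a positive difference, 0.11 ± 0.18, and its interval from -0.35 to 0.56 leaves out a 2-fold change (limma, adjusted p = 0.865).

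**Figure D2:**
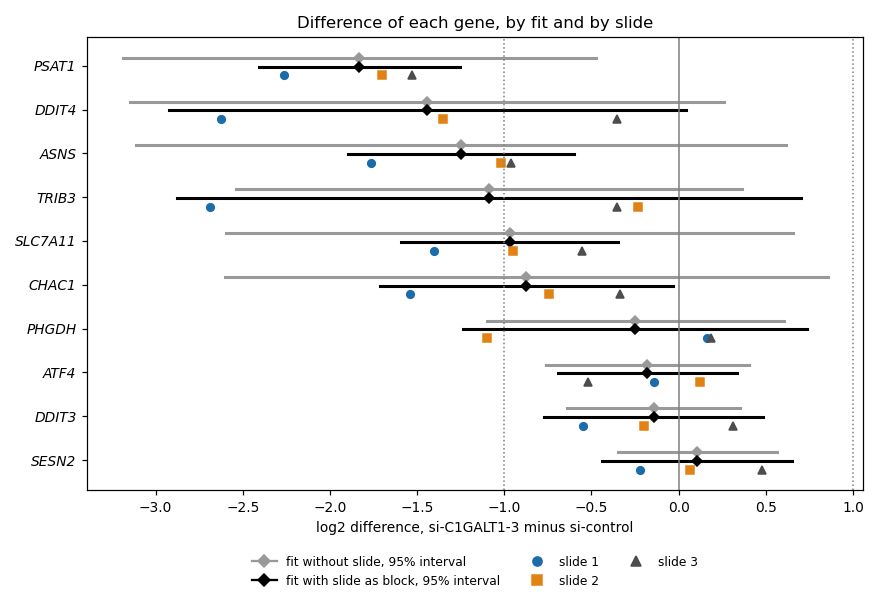
Log2 difference of each gene, si-C1GALT1-3 minus si-control, with the 95% interval of the limma fit without the slide (grey) and with the slide as a block (black), and the difference on each slide as coloured symbols. Dotted lines mark 2-fold. The black interval is far shorter than the grey one for ASNS, PSAT1 and SLC7A11, whose 3 slides lie close together, but not for TRIB3, whose slide 1 stands apart at -2.69.

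These genes also differed between slides within each group. In si-control 3, 5 of the 10 genes were lower by at least 1 on the log2 scale than the mean of si-control 1 and 2, against 6.68% of all probes. These were DDIT4 at -2.23, CHAC1 and ASNS at -2.06, SLC7A11 at -1.90 and PSAT1 at -1.52. The knockdown sample of the same slide was lower than the mean of the other knockdown samples in the same 5 genes, with differences of -0.59 in DDIT4, -1.26 in CHAC1, -1.63 in ASNS, -1.28 in SLC7A11 and -1.06 in PSAT1. ATF4 and SESN2 showed no such gap between the controls, with -0.05 and -0.07. What set slide 3 apart was not tested.

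Taking the slide as a block therefore changed the count. With it, 2 of the 10 genes were called lower, ASNS and PSAT1, against 1.02% of probes in that direction. At an unadjusted limma p under 0.05 there were 4, with CHAC1 and SLC7A11 added, against 7.62% of probes. None of the 10 had an adjusted p under 0.05 in that fit, and neither did any probe, the smallest adjusted p being 0.180. Without both arrays of slide 3, which was tried after the data were seen, 4 of the 10 were called, namely ASNS, DDIT4, PSAT1 and SLC7A11. The share of all probes called in that fit is not given here, so how far 4 of 10 departs from it cannot be read. Without both arrays of slide 1 or of slide 2 none was called. Leaving out si-control 3 alone gave 2 calls, DDIT4 and PSAT1, in a fit where calls over all probes also rose, from 1538 to 1818.

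The other genes of the pathway were taken from 7 lists by role, with 87 of 88 genes on a named probe. In all, 2 of the 87 were called, both higher, and none lower. The background was 1.65% of probes called higher and 0.992% called lower. Their median difference was -0.06 on the log2 scale, and 25 of the 76 measured on all slides were lower on all 3, or 32.9%, while 13 were higher on all 3.

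**Figure D3:**
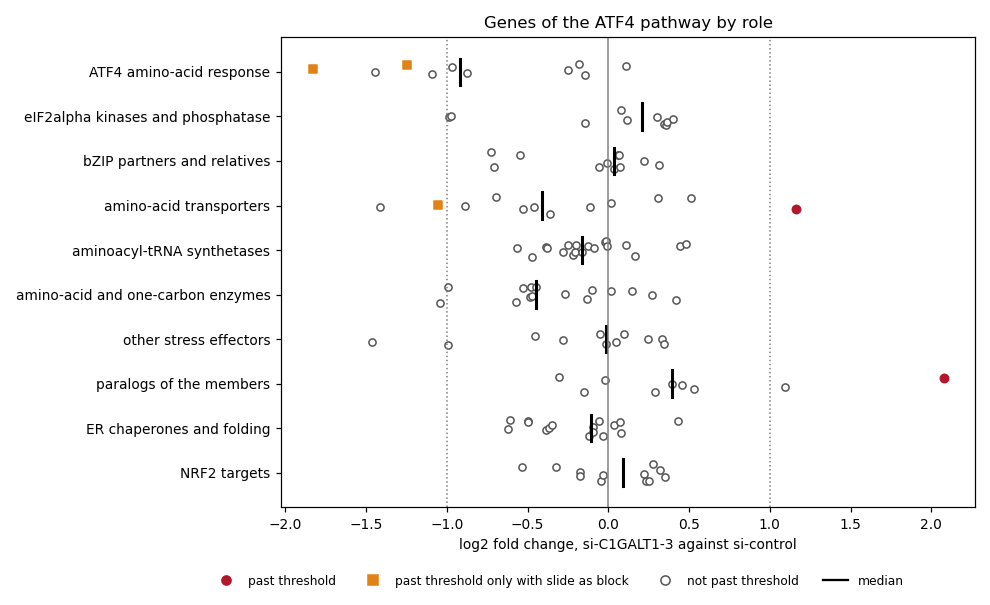
Log2 fold change of each gene, si-C1GALT1-3 against si-control, by list, with the median of each list as a black bar and dotted lines at 2-fold. Filled red circles passed the call, orange squares passed only with the slide as a block, and open circles did not pass. The ATF4 amino-acid response genes have the lowest median, -0.92, and hold 2 of the 3 orange squares.

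Upstream of ATF4, the list of eIF2α kinases, their regulators and the phosphatase held 10 genes, of which 7 had a positive and 3 a negative difference, and none was called. The kinase GCN2 (EIF2AK4) differed by 0.36 ± 0.19 (limma, adjusted p = 0.466), with groups that did not overlap and slides at 0.62, 0.05 and 0.41. PERK (EIF2AK3) differed by 0.08 ± 0.21, with groups that overlapped. The largest negative difference was in IMPACT, which inhibits the activation of GCN2, at -0.99 ± 0.39 (limma, adjusted p = 0.355). It was just under 2-fold and was -1.18, -0.88 and -0.91 on the 3 slides. The 2 subunits that direct phosphatase PP1 to eIF2α went in opposite directions. PPP1R15B, the constitutive one, differed by -0.97 ± 0.27 (limma, adjusted p = 0.230), and PPP1R15A, the stress-induced GADD34 and itself an ATF4 target, by 0.40 ± 0.13 (limma, adjusted p = 0.294). In both the groups did not overlap, and neither passed the call. Non-overlapping groups were found in 4 of the 10 genes, PPP1R15B lower and PPP1R15A, EIF2AK4 and EIF2AK1 higher, against 10.4% of probes lower and 11% higher. EIF2AK1 had only 2 control values, since its spot on si-control 2 was left out, and it differed by 0.36 and 0.08 on slides 1 and 3. PPP1R15B passed the call with the region of si-control 2 kept, under normexp background and without si-C1GALT1-3 sample 2.

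Among 11 bZIP partners and relatives, 6 differences were positive and 5 negative, and none was called. The largest negative difference was in NUPR1, a stress-induced cofactor, at -0.73 ± 0.98, and the largest positive one in CEBPA at 0.31. NUPR1 is another gene with a wide spread among controls, with 12.07, 10.67 and 8.45 against 10.16, 10.17 and 8.67. ATF3, a target and relative of ATF4, differed by -0.01 ± 0.19, and CEBPB, a partner on the C/EBP-ATF element, by 0.22 ± 0.48.

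Of 12 amino-acid transporters, 1 was called higher and none lower, with a median of -0.41. SLC36A1, a proton-coupled exporter of small amino acids from lysosomes, read 9.03, 9.16 and 9.85 in si-control and 10.32, 10.62 and 10.58 in si-C1GALT1-3. It rose by 1.16 ± 0.25 (limma, adjusted p = 0.163), and the groups did not overlap, as was so for 11% of probes in this direction. The call was lost under 9 of 20 alternatives. SLC1A4, a neutral amino-acid transporter, had the largest negative difference. It read 9.40, 9.06 and 7.72 in si-control and 7.21, 7.64 and 7.10 in si-C1GALT1-3, a difference of -1.41 ± 0.47 (limma, adjusted p = 0.286). The groups did not overlap, and it passed the call only under alternatives, with dim probes left out, without si-control 3 and without slide 3. SLC43A1, which carries branched-chain amino acids, differed by -1.06 ± 1.05 and passed the call only with the slide as a block (limma, adjusted p = 0.202), since its slides read -1.44, -0.64 and -1.09. The heavy chain that SLC7A11 pairs with, SLC3A2, differed by -0.36 ± 0.19 and was not called.

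Of 19 genes in the list of aminoacyl-tRNA synthetases, which load amino acids onto tRNA, with the tRNA exporter XPOT among them, 15 differences were negative and 4 positive, the median was -0.16, and none was called. AARS1, for alanine, had the largest negative difference at -0.56 ± 0.34, with -0.59, -0.53 and -0.56 on the 3 slides. RARS1, for arginine, went the other way at 0.48 ± 0.22. This list had the highest share of genes with TGATGNAA in the window, 7 of 15 or 46.7%, against 2 of 9 among the ATF4 amino-acid response genes.

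Of 15 other enzymes of amino-acid and one-carbon metabolism, 11 differences were negative and 4 positive, with a median of -0.45, and none was called. PCK2, the mitochondrial PEP carboxykinase, had the largest negative difference at -1.05 ± 0.72, with 13.25, 13.21 and 11.13 in si-control against 11.66, 12.20 and 10.58. MTHFD2, of the mitochondrial folate pathway, differed by -0.99 ± 0.38 (limma, adjusted p = 0.340), and its slides read -1.45, -0.86 and -0.68. PYCR1, the last enzyme of proline synthesis, differed by -0.57 ± 0.15 (limma, adjusted p = 0.213), which is less than 2-fold. PSPH, the step of serine synthesis after PSAT1, differed by -0.10 ± 0.31. The largest positive difference was in MTHFD1, a cytosolic enzyme of the folate cycle, at 0.42, and it changed sign without si-control 2. In this list 8 of 13 genes measured on all slides were lower on all 3, or 61.5%. The share was 60% among the 10 response genes and 21.8% over all probes.

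The other stress effectors, 11 of 12 genes with a probe, gave 5 positive and 6 negative differences and no call. NDRG1, a stress-responsive gene that is also induced by low oxygen, had the largest negative difference, -1.46 ± 0.54 (limma, adjusted p = 0.329), but on slides 1, 2 and 3 it read -2.34, -1.95 and -0.10. FGF21, a hormone that ATF4 induces, read 8.39, 7.96 and 8.03 in si-control and 7.12, 7.46 and 6.83 in si-C1GALT1-3. With a difference of -0.99 ± 0.22 (limma, adjusted p = 0.166) it lay just short of 2-fold, and it passed the call under the 75th percentile, with the region of si-control 2 kept, and without either or both arrays of slide 2. The largest positive difference was in SQSTM1, which encodes the autophagy receptor p62, at 0.34 ± 0.30.

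Of 9 paralogs of the 10 genes, 6 differences were positive and 3 negative, and the median was 0.39. SLC7A8, a light chain for neutral amino acids from the family of SLC7A11, rose from 8.23, 9.13 and 9.41 to 11.09, 11.31 and 10.59. The groups stood clear of each other, and the rise of 2.08 ± 0.37 was 4.22-fold (limma, adjusted p = 0.124), a call lost under 1 of 20 alternatives. TRIB2, the paralog of TRIB3, differed by 1.1 ± 0.35 (limma, adjusted p = 0.299), with 2 control values because its spot on si-control 2 was left out. SESN3 differed by -0.30 ± 0.25, and the difference from SESN2 was not tested.

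**Figure D4:**
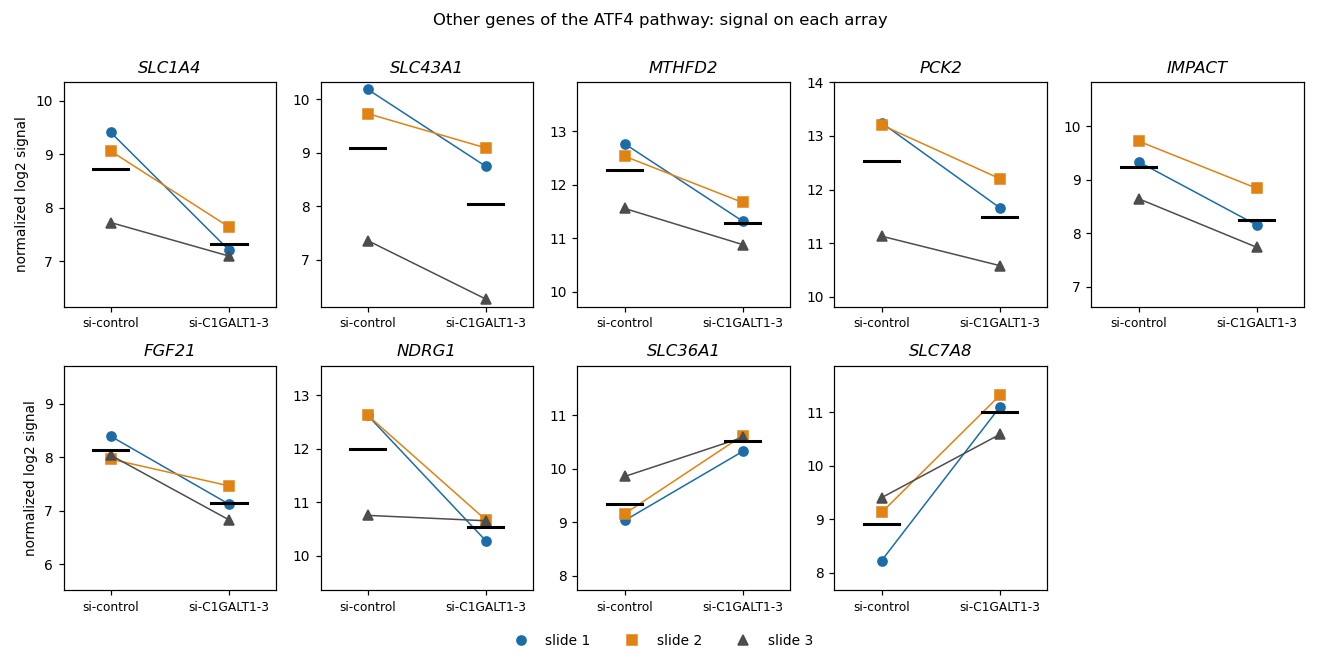
Normalized log2 signal on the 6 arrays of 9 other genes of the pathway, drawn as in the plot of the response genes, with each panel spanning 4.2 log2 units. SLC36A1 and SLC7A8 rise on every slide with groups that do not overlap. In SLC43A1 all 3 lines slope down, those of slides 1 and 2 cross, and slide 3 lies below both.

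Neighbouring stress programmes were set beside these genes. Of 16 endoplasmic reticulum chaperones and folding genes, 12 differences were negative and 4 positive, the median was -0.11 and none was called. HSPA5, the chaperone BiP, differed by -0.35 ± 0.18 (limma, adjusted p = 0.451), CANX by -0.62, the largest negative difference, and SYVN1 by 0.43. Of 12 targets of NRF2, the regulator of the oxidative stress response, which also acts on SLC7A11, 6 were positive and 6 negative, with a median of 0.09 and none called. OSGIN1 had the largest negative difference at -0.54 and ABCC2 the largest positive one at 0.35.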

How the data were processed

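RNA of AGS cells, taken 48 h after the siRNA, was hybridized to 6 one-colour Agilent arrays, and the groups came from the sample labels. The authors deposited the output of Agilent Feature Extraction (version 10.5.1.1 in the submitters' processing notes), whose values are fluorescence intensity per spot, corrected for background within the array and not normalized between arrays. A series table deposited by the authors holds background-subtracted intensity of the same spots and was used only as an alternative.

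Here log2 of the processed signal was taken. Control spots were left out, and spots marked as outliers, between 100 and 424 per array, and the spots in rows 113 to 288 and columns 59 to 115 of si-control 2 were set to missing. Arrays were quantile normalized, spots of a probe averaged, and the groups compared with limma version 3.58.1 (lmFit and eBayes, two-sided) in R version 4.3.3, with Benjamini-Hochberg adjustment over all 58193 probes. Groups were 3 arrays each, which limits the precision, and intervals are 95% intervals from limma. Of 58201 probes, 31104 were named through the RefSeq accession on the array and the RefSeq gene table of GRCh38.p14. Where a gene had several probes, the one brightest on average over the 6 arrays was used. The files name another genome build, so only promoter coordinates are given, from RefSeq. The fit was tested on simulated data.

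The members and lists were chosen with earlier results of these data known. Named genes are C1GALT1, the 10 members and, in each list, the called genes and the largest difference in each direction among probes well above background on all 3 arrays of a group. EIF2AK4, EIF2AK3, EIF2AK1, PPP1R15B, ATF3, CEBPB, SLC43A1, SLC3A2, MTHFD2, PYCR1, PSPH, FGF21, TRIB2 and HSPA5 were added after their values were seen. Some genes are not reported here and were left out of the lists and their counts.

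By the scanner files, arrays with equal replicate numbers lay on one slide. The correlation of deviations from the group means between them was 0.200, 0.214 and 0.318 for numbers 1, 2 and 3. The numbers were therefore taken as pairs for the differences by slide. The main fit did not use the pairing, and a fit with the slide (replicate) as block was an alternative. The others were keeping the region of si-control 2, the 75th percentile or no normalization, and normexp background (offset 50, on the median spot signal). Further ones were leaving out dim probes, a trend and robust prior, and Student's t-test with equal variances in place of limma. Also used were keeping outlier spots, the series table floored at 10, the median of a gene's probes, and leaving out each array. Leaving out both arrays of a slide was chosen after seeing the data.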

Additional observations from a re-analysis of the deposited data

How the results depend on the processing

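Among the 10 response genes, where the comparison gave 0 calls, PSAT1 alone was called under the 75th percentile, under normexp background and with dim probes left out (1 call each), and the replicate block gave 2 calls. Leaving out 1 array gave 0 to 2 calls, with 2 (DDIT4 and PSAT1) without si-control 3, and leaving out both arrays of slide 1, 2 or 3 gave 0, 0 and 4. The count over all probes without slide 3 is not given here. Of the 87 other pathway genes, 2 were called. There were 3 with the region of si-control 2 kept (PPP1R15B, FGF21 and SLC7A8) and under the 75th percentile (FGF21 added). There were also 3 under normexp (PPP1R15B added), with dim probes left out (SLC1A4 added) and with the block (SLC43A1 added). Student's t-test gave 1 (SLC7A8). Leaving out 1 array gave 1 to 6, with 6 without si-control 3. Leaving out both arrays of slide 1, 2 or 3 gave 1, 1 and 6. Without slide 3 these 6 were SLC1A4, SLC36A1, MTHFD2, PCK2, NDRG1 and SLC7A8. How far 6 of 87 departs from the share of all probes called in that fit cannot be read either. Over all probes the 1538 calls became 915 under normexp, 896 by Student's t-test, 981 without slide 1 and 1024 without slide 2. They became 1135 to 1818 with 1 array left out. The share of calls that were higher was 62.5%, against 40.2% with the region of si-control 2 kept and 72.6% with no normalization. Probes at an adjusted p under 0.05 numbered 49, against 0 with the region kept or with the block, 429 under normexp and 545 with dim probes left out. The 75th percentile moved the median of all probes to -0.11. C1GALT1 passed the call with dim probes left out, at -1.0, and ranged from -1.20 to -0.75 with 1 array left out.

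Some differences near 0 changed sign. With 1 array left out, DDIT3 ranged from -0.29 to 0.021 (the highest without si-control 1), ATF4 from -0.40 to 0.0078 (without si-C1GALT1-3 sample 3), SESN2 from -0.053 (without that sample) to 0.23, PHGDH from -0.53 to 0.063 (without si-control 2), NUPR1 from -1.70 to 0.11 (without si-control 1), MTHFD1 from -0.088 (without si-control 2) to 0.93 and COL1A1 from -0.26 to 0.17 (without si-control 1). DDIT3 was 0.057 without slide 1, SESN2 -0.078 without slide 3, PHGDH 0.18 and MTHFD1 -0.15 without slide 2, and OSGIN1 0.37 with the region kept. Of the cell markers, COL1A1 was 0.090 with no normalization, 0.092 without si-C1GALT1-3 sample 1 and 0.30 without slide 1, and VWF was 0.37 and PDGFRB 1.35 by the median over probes. The causes were not tested. PSAT1, ASNS, DDIT4, TRIB3, SLC7A11 and CHAC1 stayed negative under all 20 alternatives, PSAT1 between -2.34 and -1.48, DDIT4 between -2.18 and -0.85, ASNS between -1.94 and -0.70, TRIB3 between -1.54 and -0.29, SLC7A11 between -1.60 and -0.54 and CHAC1 between -1.56 and -0.39. For the 10 response genes and the genes that the naming rule took from the lists, 673 of 719 values under an alternative kept their direction and their side of the call. With 3 arrays per group, differences near 2-fold were often short of the call, and PHGDH lay too near background to measure.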

Other observations

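Outside the 10 response genes, the pathway genes with the largest gap between si-control 3 and the mean of the other controls included NUPR1 at -2.92 on the log2 scale, SLC43A1 at -2.60, PCK2 at -2.10 and NDRG1 at -1.87. In si-C1GALT1-3 sample 3 the gap to the mean of the other targeted samples was -1.50 for NUPR1, -2.65 for SLC43A1, -1.35 for PCK2 and 0.18 for NDRG1. In all, 11 of the 87 other pathway genes were lower in si-control 3 by at least 1 on that scale, or 12.6%, against 6.68% of probes. These genes were picked after their values were seen.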
